A study of Homo sapiens with 4 samples.

Results

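The interferon response genes described here are 42 genes chosen by name, the interferon-induced effectors with their regulators, receptors and the ligand IFNB1, of which 41 were measured among 18417 genes on the arrays. For each gene the probe set that carries its symbol alone was used, or the brightest of several, and STAT2 was not analysed here. The genes were sorted by role into the IFIT, OAS, MX, PARP and STAT-IRF families, IFI and IFITM genes, RNA sensors, the ISG15 system, other effectors, and ligand and receptors.

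The samples come from MDA-MB-231, an established basal-like line from a human breast cancer. One group received a plasmid carrying FOXC1, a forkhead transcription factor, and the other the vector, both with the lipid reagent Lipo2000, and both were grown in DMEM with 10% serum, penicillin and streptomycin. Each group has 2 samples, named as biological replicates by the labels, and 100 ng of total RNA from each was hybridised to 1 Affymetrix whole-transcript array. The sources used here do not give whether transfection was transient or stable, or whether the cells were pools or single clones. No check of the labels against the FOXC1 transcript was made, and that transcript and untransfected cells were not analysed here.

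Type I interferons such as interferon beta bind the receptor chains IFNAR1 and IFNAR2, and the attached kinases JAK1 and TYK2 phosphorylate STAT proteins. A complex that holds STAT2 and IRF9 binds interferon-stimulated response elements in the promoters of the induced genes, while STAT dimers bind a separate palindromic element. Tumour cells can express the induced genes at a steady level without added interferon.

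Of the 41 measured genes 20 were lower and 2 were higher in FOXC1 than in vector cells, and 19 did not pass the test. The largest falls were in the antiviral GTPase MX2, in IFI44L, in the virus-tethering protein BST2 and in PARP14, each at least 2-fold. The transcription factors IRF1 and IRF9 and both MX and both PARP genes fell. The RNA-degradation activators OAS1 and OAS3 rose. Among the genes that did not pass were 3 of the 4 IFIT genes, ISG15, HERC5, HERC6, IRF7, and the ligand and receptor genes. The fit was limma on log2(signal + 16), where signal is the deposited linear PLIER value, and a gene was called at an adjusted p under 0.05 by Benjamini-Hochberg over all named probe sets. The background was high: 31.4% of all genes were called, 15.5% lower and 15.9% higher, against 53.7%, 48.8% and 4.88% of the 41 genes. That even split of all genes depends on the scaling. It was 2852 lower and 2925 higher as deposited, 2543 and 3758 after centring each array on the median of named probe sets, and 3396 and 1739 after centring on the median of all rows. The 41 genes gave 20 lower and 4 higher, and 21 lower and 2 higher, under these centrings.

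Most of the falls were moderate. A call with at least a 1.5-fold fall was made for 13 of the 41 genes against 2.14% of all genes, and one with at least a 2-fold fall for 4 genes against 0.69%. Only OAS1 rose by at least 1.5-fold, against 0.88% of all genes. The median log2 change, FOXC1 minus vector, was -0.11 over the 41 genes and 0.03 over all genes. Both FOXC1 arrays lay below both vector arrays in 25 of the 41 genes (26.4% of all genes) and above both in 10 (37.1% of all genes), and the groups overlapped in 6. The 20 lower genes had a median log2 change of -0.67, while the 19 that did not pass ranged from -0.16 to 0.27. With 2 arrays a group, an exact permutation test of a single gene cannot go below p = 0.333, so each call rests on the spread shared over all probe sets.

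The median signal per array lay between 489 and 512, and log2 signals correlated at 0.998 within each group and between 0.989 and 0.99 across groups, over probe sets, which are not independent. Markers of the line were bright: VIM had a mean signal of 16879 in vector and 16248 in FOXC1 arrays and CD44 of 10832 and 12722, while SPARC was dim. Of the 7 line markers VIM, MSN and CAV1 were called lower and CD44 and MET higher. Dim means that neither group's mean exceeds 277, the 25th percentile of named probe sets. No marker of another cell type was at 0. Of 13 leukocyte markers 8 were dim, their summed signal was 3505 and 3496 in vector and 3434 and 3750 in FOXC1 arrays, and PTPRC alone was called, at 62.6 and 63.5 against 93.9 and 93.5. None of 4 plasmacytoid dendritic cell markers was called. Among 8 fibroblast markers DCN, which was dim, was higher. Among 6 endothelial markers PECAM1 and TIE1 were lower, PECAM1 at 719 and 914 in vector against 249 and 245 in FOXC1 arrays. The summed endothelial signals were 4186 and 4231 in vector and 3468 and 3578 in FOXC1 arrays. Of 7 luminal epithelial markers EPCAM, KRT8, KRT18, KRT19 and GATA3 were lower, and their summed signal was 24694 and 25233 in vector and 21175 and 20843 in FOXC1 arrays. Beside these marker calls, 15.5% of all genes were lower and 15.9% higher. The part of these markers in the results was not tested. In RNA of whole cultures, fewer expressing cells and less RNA per cell cannot be told apart, and p-values measure only the spread between these arrays.

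The promoters of 34 of the 41 genes were found in a RefSeq table (build GRCh38.p14), as windows from 250 bases before to 50 after a transcript start. IFIT2, OAS2, OASL, MX2, IRF7, USP18 and IFNAR2 had no entry. The windows shown are those of IFI44L at chr1:78620198-78620497 (plus strand) and BST2 at chr19:17405581-17405880 (minus strand), the largest falls with an entry, and of OAS1 at chr12:112906712-112907011 (plus strand) and OAS3 at chr12:112938224-112938523 (plus strand), the only rises. PARP14 at chr3:122680589-122680888 (plus strand) and ISG15 at chr1:1013247-1013546 (plus strand), a gene that did not pass, were added after their values were seen. Capitals mark AAANNGAAA, the core of the interferon-stimulated response element, searched on both strands, and the letters read 5′ to 3′ on the gene's strand.
IFI44L: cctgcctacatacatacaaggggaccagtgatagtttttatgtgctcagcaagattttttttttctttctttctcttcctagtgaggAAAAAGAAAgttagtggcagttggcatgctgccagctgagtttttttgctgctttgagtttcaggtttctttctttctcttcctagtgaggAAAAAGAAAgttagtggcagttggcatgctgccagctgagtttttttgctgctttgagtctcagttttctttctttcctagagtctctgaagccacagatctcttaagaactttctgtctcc
BST2: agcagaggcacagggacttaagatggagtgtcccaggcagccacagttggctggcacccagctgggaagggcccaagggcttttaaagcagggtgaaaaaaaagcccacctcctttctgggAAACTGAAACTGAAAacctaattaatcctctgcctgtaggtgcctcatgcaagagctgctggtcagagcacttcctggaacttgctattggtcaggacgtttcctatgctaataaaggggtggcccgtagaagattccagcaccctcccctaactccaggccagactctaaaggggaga
PARP14: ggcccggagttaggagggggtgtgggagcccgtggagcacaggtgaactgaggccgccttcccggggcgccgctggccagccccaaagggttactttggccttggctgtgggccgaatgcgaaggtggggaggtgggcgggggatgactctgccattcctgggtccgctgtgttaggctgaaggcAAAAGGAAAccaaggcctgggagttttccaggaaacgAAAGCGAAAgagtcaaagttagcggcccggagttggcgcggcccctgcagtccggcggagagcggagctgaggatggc
OAS1: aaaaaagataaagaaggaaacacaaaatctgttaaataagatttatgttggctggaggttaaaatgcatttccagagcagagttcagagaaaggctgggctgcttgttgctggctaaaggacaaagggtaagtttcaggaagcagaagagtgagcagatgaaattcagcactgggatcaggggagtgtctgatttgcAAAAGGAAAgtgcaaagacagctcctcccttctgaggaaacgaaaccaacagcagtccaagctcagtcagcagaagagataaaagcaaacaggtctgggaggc
OAS3: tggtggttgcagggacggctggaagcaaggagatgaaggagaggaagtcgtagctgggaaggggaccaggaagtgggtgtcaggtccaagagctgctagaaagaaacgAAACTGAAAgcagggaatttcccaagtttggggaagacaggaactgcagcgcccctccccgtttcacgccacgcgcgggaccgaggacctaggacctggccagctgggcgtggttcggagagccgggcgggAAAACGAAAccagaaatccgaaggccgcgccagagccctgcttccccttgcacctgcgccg
ISG15: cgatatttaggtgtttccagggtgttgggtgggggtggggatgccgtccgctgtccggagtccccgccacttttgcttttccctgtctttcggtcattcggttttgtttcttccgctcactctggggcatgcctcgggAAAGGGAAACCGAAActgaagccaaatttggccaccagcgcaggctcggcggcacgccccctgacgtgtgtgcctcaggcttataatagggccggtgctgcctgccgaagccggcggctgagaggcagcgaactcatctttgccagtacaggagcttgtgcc

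The same core stood in the promoters of genes that fell, rose and did not pass. IFI44L held AAAAAGAAA at positions -163 and -72 from the start, in a stretch that is repeated within the window. BST2 held AAACTGAAA at -129 and again at -123, overlapping by 3 bases, and ISG15 held AAAGGGAAA at -112 and AAACCGAAA at -106 in the same arrangement. OAS1 had 1 match, AAAAGGAAA at -53, and OAS3 had AAACTGAAA at -142 and AAAACGAAA at -11. The OAS1 window also holds aaacgaaa downstream of its match. That stretch has 1 letter between AAA and GAAA, so the search could not mark it. PARP14 had AAAAGGAAA at -65 and AAAGCGAAA at -28. Some genes have several starts, so the 34 genes gave 47 windows, of which 30 (63.8%) held the core, against 10.5% of the 35116 windows in the table. It was in 15 of 22 windows of the lower genes and in 15 of 25 windows of the others. With 1 more G required in front, the counts were 25 of 47 (53.2%) and 3.57% of all windows. OAS1, IFNB1, RIGI, SAMD9L and XAF1 then had no match. A match describes letters and is not shown to be a bound site.

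IRF1 was the strongest faller whose window lacked this core, and its promoter at chr5:132490724-132491023 (minus strand) is shown, also chosen after its values were seen, with TTCNNNGAA, the core of the STAT dimer element, in capitals.
IRF1: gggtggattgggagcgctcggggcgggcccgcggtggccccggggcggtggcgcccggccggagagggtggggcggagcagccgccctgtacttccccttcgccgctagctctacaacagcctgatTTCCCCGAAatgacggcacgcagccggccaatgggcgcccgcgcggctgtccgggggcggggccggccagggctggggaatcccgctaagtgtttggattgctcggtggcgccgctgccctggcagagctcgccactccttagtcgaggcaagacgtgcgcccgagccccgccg
The match in IRF1 was TTCCCCGAA at -124. TTCNNNGAA was in 12 of the 47 windows (25.5%, 11 genes) and in 7.66% of all windows, with 6 windows each among lower and other genes. In BST2 its first match, TTCTGGGAA at -136, shares letters with the response element core. The forkhead core GTAAACA, searched on both strands, stood in 3 windows (6.38%), those of CMPK2, IFNAR1 and SAMD9L, against 3.42% of all windows. Of these 3 genes SAMD9L alone was called.

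**Figure D1:**
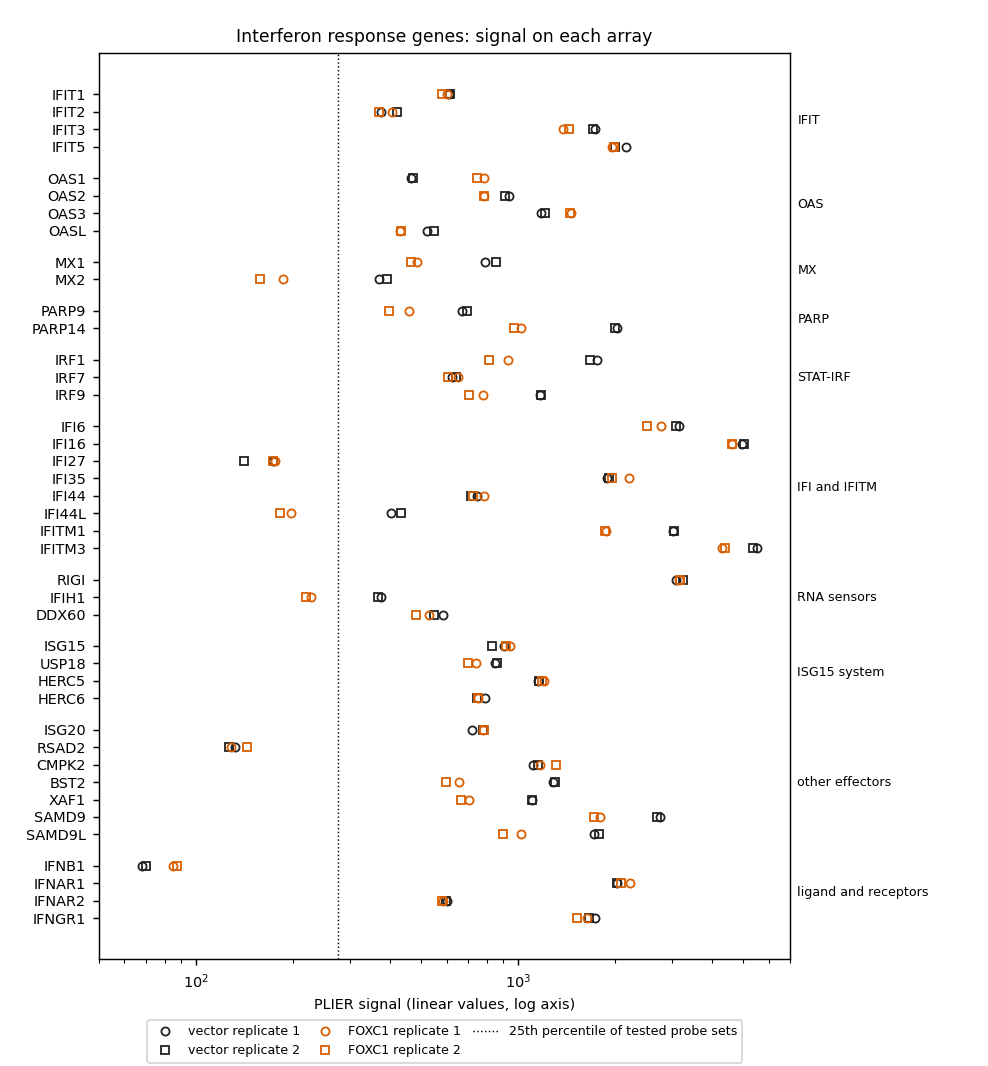
PLIER signal of the 41 interferon response genes on each of the 4 arrays, on a log axis, with circles and squares for replicates 1 and 2, black for vector and orange for FOXC1, grouped by role. The dotted line marks 277, below which both group means of IFI27, RSAD2 and IFNB1 lay, and the orange points of MX2, PARP14, IRF1, IFI44L and BST2 stand clear to the left of the black ones.

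At the head of the pathway, neither the ligand nor the receptors passed in the fit over all 4 arrays as deposited. IFNB1, interferon beta, was dim, at 68.2 and 70.1 in vector and 85.2 and 87.6 in FOXC1 arrays. Its groups did not overlap, but the log2 change was 0.27 ± 0.13 (SE from the fit), with a limma adjusted p of 0.123. IFNAR1 gave 2030 and 2027 in vector against 2225 and 2085 in FOXC1 arrays, and its partner chain IFNAR2 600.4 and 598 against 584 and 581. IFNGR1, the ligand-binding chain of the interferon gamma receptor, gave 1731 and 1665 against 1638 and 1519. The log2 changes of these 3 receptor genes lay between -0.11 and 0.09, and the smallest of their limma adjusted p-values was 0.12. None of the 3 differed from 0 by the test, which does not show that the levels were equal. Other fits called some of them: IFNB1 higher without a variance trend (limma adjusted p = 0.0217), IFNAR1 higher with median centring (0.0419) and without FOXC1 replicate 2 (0.0249), and IFNGR1 lower without FOXC1 replicate 1 (0.0159).

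Among the transcription factors, IRF1 and IRF9 fell and IRF7 did not pass. IRF1, which activates interferon-induced and antigen presentation genes, was at 1760 and 1674 in vector and at 928 and 812 in FOXC1 arrays. It fell 1.96-fold (log2 -0.97 ± 0.06, limma adjusted p = 5.06e-11), and the gap between groups was far wider than that between arrays of a group. IRF9, which gives the complex with STAT2 its DNA contact, went from 1167 and 1176 to 776 and 706, a 1.57-fold fall (log2 -0.65 ± 0.06, limma adjusted p = 3.22e-08). IRF7, the amplifier of type I interferon production, gave 626 and 643 in vector and 652 and 607 in FOXC1 arrays. Its groups overlapped, with a log2 change of -0.01 ± 0.07. STAT2 is the fourth gene of this family and was not analysed here.

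Both MX genes fell. MX1 encodes a cytoplasmic GTPase that traps viral ribonucleoproteins, and MX2 a relative that acts at the nuclear envelope. MX1 was at 789 and 855 in vector and at 484 and 464 in FOXC1 arrays, a 1.71-fold fall (log2 -0.77 ± 0.07, limma adjusted p = 1.89e-08). MX2 was at 370 and 391 against 187 and 158, a 2.11-fold fall (log2 -1.08 ± 0.10, limma adjusted p = 2.17e-08). MX2 had the largest fall of the 41 genes, and its FOXC1 signals lay below the limit for dim probe sets.

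Both PARP genes fell as well. PARP14, a mono-ADP-ribosyltransferase, gave 2024 and 1996 in vector and 1022 and 971 in FOXC1 arrays. Its 2.00-fold fall (log2 -1.001 ± 0.05) had the lowest adjusted p of the 41 genes, 1.27e-12 in the limma fit. PARP9, which works with the ubiquitin ligase DTX3L, gave 668 and 694 against 458 and 397, a 1.57-fold fall (log2 -0.66 ± 0.08, limma adjusted p = 1.01e-06). No PARP9 or PARP14 signal of the FOXC1 arrays reached those of the vector arrays, which was also so for 26.4% of all genes.

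The OAS family, which makes 2′-5′-linked oligoadenylates that activate RNase L, split in direction. OAS1 rose 1.60-fold, from 466 and 474 in vector to 782 and 746 in FOXC1 arrays (log2 0.68 ± 0.07, limma adjusted p = 1e-07). OAS3, the long form of the enzyme, rose 1.21-fold, from 1179 and 1213 to 1459 and 1453 (log2 0.28 ± 0.05, limma adjusted p = 0.000159). OAS2 went the other way, from 935 and 910 to 782 and 786 (log2 -0.23 ± 0.06, limma adjusted p = 0.00514). OASL, a relative without synthase activity that assists RIG-I, was at 521 and 550 in vector and at 431 and 432 in FOXC1 arrays (log2 -0.30 ± 0.08, limma adjusted p = 0.00385). In none of the 4 genes did the groups overlap. Over all genes both FOXC1 arrays lay below both vector arrays in 26.4% and above both in 37.1%. The call of OAS2 was lost without vector replicate 1 (limma adjusted p = 0.0912) and that of OASL without vector replicate 2 (0.0829), while the rises of OAS1 and OAS3 were called in every fit that tested them.

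The IFIT genes, whose family includes proteins that bind foreign RNA ends and block its translation, moved little. IFIT3 fell 1.22-fold, from 1732 and 1711 in vector to 1382 and 1436 in FOXC1 arrays (log2 -0.29 ± 0.05, limma adjusted p = 6.8e-05). The binding partner of IFIT3, IFIT1, gave 609 and 614 against 601 and 580 (log2 -0.05 ± 0.07), so that its groups lay side by side without overlap. IFIT2 gave 376 and 421 against 407 and 371, with overlapping groups (log2 -0.03 ± 0.09). IFIT5 gave 2168 and 1998 against 1954 and 1990 (log2 -0.08 ± 0.05), with vector replicate 1 well above the other 3 arrays. The limma adjusted p-values of IFIT1, IFIT2 and IFIT5 were between 0.227 and 0.806.

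Of the 8 IFI and IFITM genes 5 (62.5%) fell, against 15.5% of all genes. IFI44L, a relative of the cytoplasmic protein IFI44, fell 2.10-fold, from 402 and 432 in vector to 198 and 182 in FOXC1 arrays (log2 -1.07 ± 0.09, limma adjusted p = 7.86e-09). IFITM1 and IFITM3, membrane proteins that hinder virus entry, were both lower. IFITM1 gave 3027 and 3050 against 1870 and 1860, a 1.62-fold fall with arrays of a group nearly equal (log2 -0.70 ± 0.04, limma adjusted p = 1.02e-11). IFITM3 gave 5498 and 5343 against 4288 and 4380, a 1.25-fold fall (log2 -0.32 ± 0.03, limma adjusted p = 4.9e-08). Probes of these short, similar genes can bind the transcripts of each other.

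IFI6 and IFI16 made smaller moves. IFI6, a mitochondrial and endoplasmic reticulum protein linked to cell survival, went from 3150 and 3093 to 2773 and 2511 (log2 -0.24 ± 0.04, limma adjusted p = 0.00016). IFI16, a nuclear DNA sensor, went from 4942 and 5022 to 4600 and 4598, the smallest change that passed (log2 -0.11 ± 0.03, limma adjusted p = 0.00592). The IFI16 call was lost without vector replicate 2 (limma adjusted p = 0.096), and both calls were lost in a fit without a variance trend (0.0629 for IFI6 and 0.123 for IFI16). IFI35 gave 1891 and 1911 in vector and 2213 and 1953 in FOXC1 arrays (log2 0.13 ± 0.05), the nearest miss at a limma adjusted p of 0.0627, with FOXC1 replicate 1 well above the other arrays. IFI44 overlapped between groups, and IFI27 was dim.

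Of the 3 cytoplasmic RNA sensors only IFIH1 passed (33.3%), a share near the 31.4% of all genes that were called. IFIH1, known as MDA5, which senses long double-stranded RNA, fell 1.62-fold, from 375 and 368 in vector to 228 and 220 in FOXC1 arrays (log2 -0.69 ± 0.09, limma adjusted p = 2.83e-06). RIGI, the sensor of short RNA with triphosphate ends, named DDX58 in the list, gave 3091 and 3246 against 3148 and 3177. Its groups overlapped and its limma adjusted p was 0.971. The helicase DDX60 gave 587 and 548 against 531 and 481 (log2 -0.16 ± 0.08, limma adjusted p = 0.121).

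In the ISG15 system, a ubiquitin-like modifier listed with HERC5, HERC6 and its protease, only the protease gene passed. This was 1 of 4 genes (25%), against 31.4% of all genes. USP18, which removes ISG15 and also restrains the receptor, fell from 847 and 860 in vector to 740 and 700 in FOXC1 arrays, or 1.18-fold (log2 -0.24 ± 0.06, limma adjusted p = 0.00518). That call was lost without vector replicate 2 (limma adjusted p = 0.0683). ISG15 itself gave 907 and 829 against 942 and 916 (log2 0.10 ± 0.06, limma adjusted p = 0.261), with a spread between the vector arrays larger than the gap between groups. HERC5 and HERC6 had log2 changes of 0.04 and -0.03.

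Of the 7 remaining effectors 4 fell by at least 1.5-fold, against 2.14% of all genes, and 3 did not pass. BST2, or tetherin, which holds budding virus at the cell surface, gave 1288 and 1301 in vector and 657 and 598 in FOXC1 arrays, a 2.04-fold fall (log2 -1.03 ± 0.06, limma adjusted p = 2.83e-11). XAF1, which binds the apoptosis inhibitor XIAP, gave 1106 and 1102 against 707 and 665, a 1.60-fold fall (log2 -0.68 ± 0.06, limma adjusted p = 1.54e-08). In both genes the vector arrays were almost equal and the FOXC1 arrays far below.

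SAMD9 and SAMD9L, paralogs that restrict poxviruses and cell growth, fell together. SAMD9 gave 2765 and 2695 in vector against 1801 and 1717 in FOXC1 arrays, or 1.55-fold (log2 -0.63 ± 0.04, limma adjusted p = 1.83e-10). SAMD9L gave 1723 and 1782 against 1021 and 895, or 1.82-fold (log2 -0.86 ± 0.06, limma adjusted p = 2.02e-10). The 3 that did not pass were the exonuclease ISG20, the nucleotide kinase CMPK2 and RSAD2, or viperin, with log2 changes of 0.06, 0.13 and 0.06. RSAD2 was dim at 127 to 144 on the 4 arrays, so a change there would be poorly measured.

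**Figure D2:**
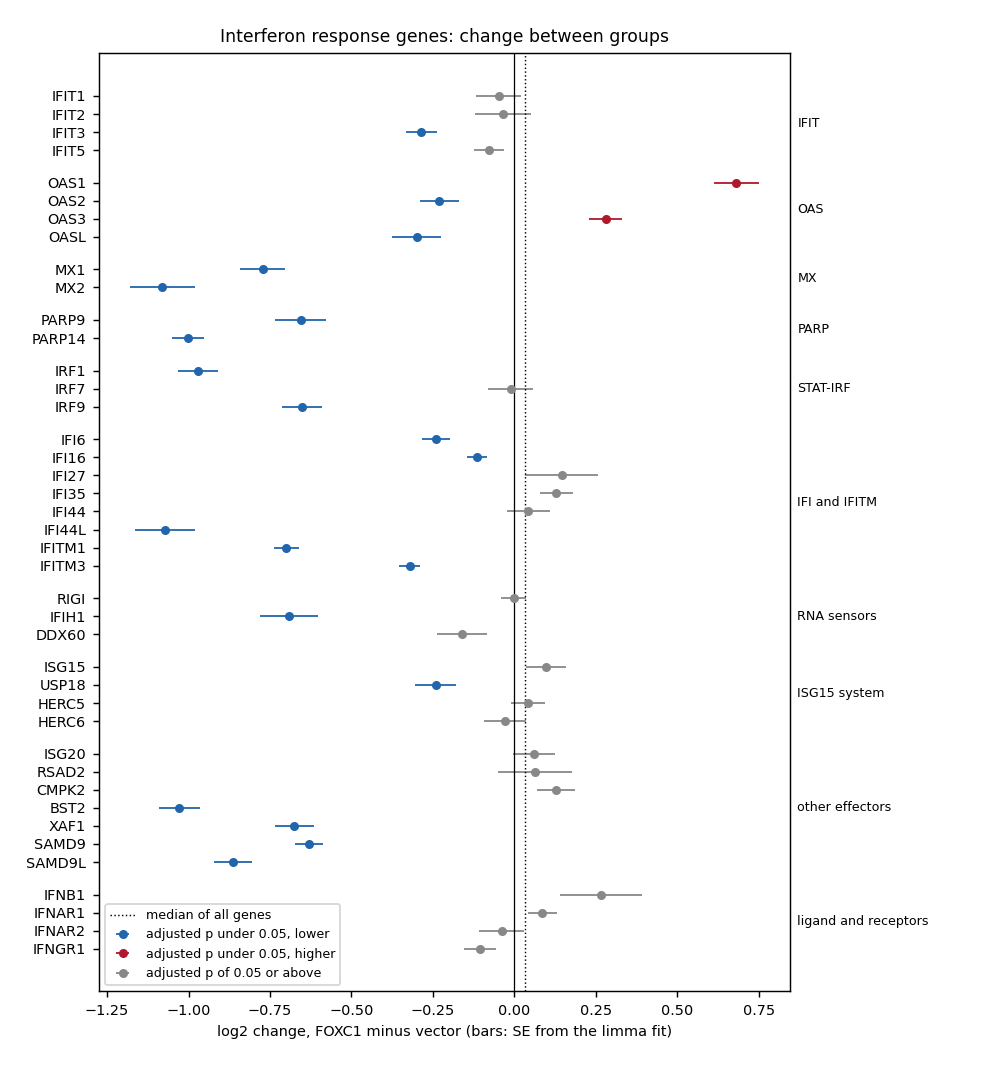
Log2 change of each interferon response gene, FOXC1 minus vector, with the SE of the limma fit as bars, blue for genes called lower, red for higher and grey for neither; the dotted line marks 0.03, the median of all genes. MX, PARP and SAMD9 genes lie to the left, OAS1 and OAS3 to the right of OAS2 and OASL, and most IFIT, ISG15 system and receptor genes near 0.

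Many of these genes are neighbours on a chromosome, and the gene order of the RefSeq table (GRCh38.p14) was used to set them side by side. Some neighbours differed in call. IFI44L fell 2.10-fold while IFI44, the next gene, did not pass (log2 0.04). Next to IFIT3, which fell, IFIT2 did not pass, nor did IFIT1, which is separated from IFIT3 by IFIT1B. In the OAS cluster the order is OAS1, OAS3, OAS2, with log2 changes of 0.68, 0.28 and -0.23.

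Other neighbours shared a direction. MX2 and MX1 both fell, as did SAMD9 and SAMD9L. Neither gene passed in the pairs IFIT1 and IFIT5, CMPK2 and RSAD2, HERC6 and HERC5, and IFNAR2 and IFNAR1. Of all genes 31.4% were called. HERC6 and HERC5 differed in sign (log2 -0.03 and 0.04), as did IFNAR2 and IFNAR1 (log2 -0.04 and 0.09). Between PARP9 and PARP14 lie DTX3L and PARP15, and all 4 were lower, with log2 changes of -0.66 for PARP9, -0.32 for DTX3L, -0.78 for PARP15 and -1.001 for PARP14. IFITM1 and IFITM3 fell, and IFITM2 beside them also fell (log2 -0.38). AIM2, a DNA sensor gene next to IFI16, fell by 1.08 on the log2 scale against 0.11 for IFI16 itself (log2 -0.11). DDX60L, next to DDX60, rose (log2 0.34), while DDX60 had a log2 change of -0.16.

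The regions around the 41 genes had median changes close to that of all genes. For each of the 41 genes the 10 nearest measured genes on each side were taken, with the 41 genes left out, except that IFITM1 and IFITM3 had 18 neighbours in all. Genes of 1 cluster share neighbours. The neighbours' median log2 change lay between -0.14 and 0.14, and its median was 0.03 for the 20 lower genes and 0.04 for the others. Single neighbours ranged further, down to -2.645 near IFI27 and up to 0.7471 near IFNGR1. Of the 20 lower genes 12, among them MX2, IFI44L, BST2, PARP14 and IRF1, were below every one of their neighbours, and 8 lay within the neighbours' range. Genes picked because they fell tend to lie low among any neighbours. The same count was not made for all genes called lower, so whether 12 of 20 is unusual was not tested. OAS1 and OAS3 were above all of theirs. IRF9 had the lowest neighbourhood, with a median of -0.14 and 7 of 20 neighbours called lower, against 15.5% of all genes. IRF1 also had 7 of 20 neighbours called lower, and PARP9, PARP14 and BST2 had 6 of 20 each. The other lower genes had from 0 (USP18 and XAF1) to 4.

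**Figure D3:**
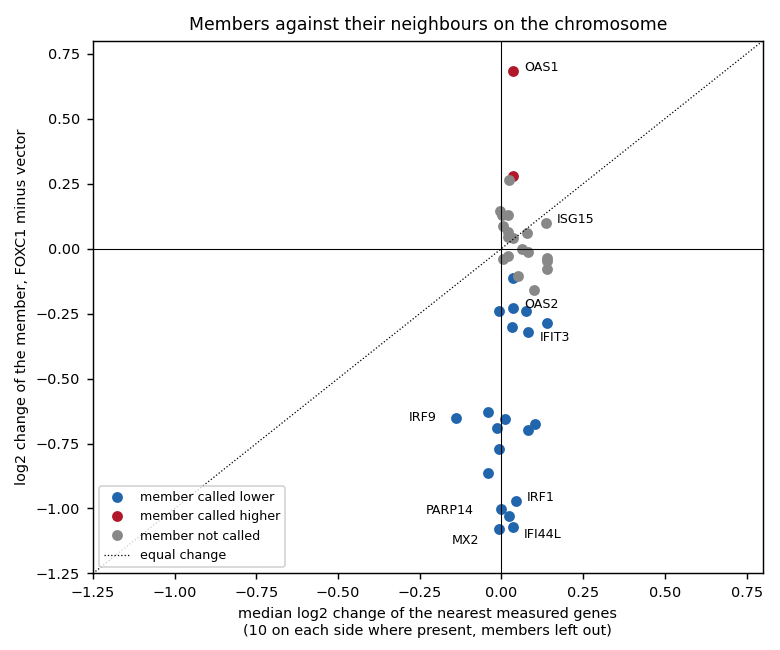
Log2 change of each of the 41 interferon response genes (vertical axis) against the median log2 change of its nearest measured genes on the chromosome (horizontal axis), coloured by call, with a dotted line of equal change. The points spread from -1.08 to 0.68 vertically and from -0.14 to 0.14 horizontally. A median of up to 20 genes varies less than 1 gene does, so these spreads cannot be compared.

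Other genes of the pathway were set beside the 41: 112 measured genes that are not among them, in 5 lists by function, of which 26 (23.2%) were lower and 19 (17.0%) higher, against 15.5% and 15.9% of all genes. Their median log2 change was -0.03. Among 14 JAK-STAT signalling genes 3 rose and 1 fell, so that 28.6% were called against 31.4% of all genes. PTPN2, a phosphatase that acts on JAK1, rose 1.52-fold, from 2626 and 2503 to 3993 and 3845 (log2 0.61 ± 0.04, limma adjusted p = 5.03e-11). SOCS1, a feedback inhibitor of JAK kinases, fell (log2 -0.29), while its relative SOCS3 (log2 0.19) and the phosphatase PTPN11 (log2 0.10) rose slightly. None of 15 other interferon ligand genes was called, and 11 of them were dim.

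Of 22 nucleic acid sensing genes 3 (13.6%) were lower and 6 (27.3%) higher, against 15.5% and 15.9% of all genes. AIM2 was at 531 and 522 in vector and at 269.8 and 216 in FOXC1 arrays, a 2.11-fold fall. TLR3, the endosomal sensor of double-stranded RNA, fell 1.95-fold, from 1438 and 1415 to 769 and 685 (log2 -0.96 ± 0.06). NLRC5, an activator of MHC class I genes, fell (log2 -0.34). STING1 and CGAS, the cytoplasmic DNA-sensing pair, both rose, by log2 0.34 and 0.30, as did the adaptor TRAF3 (log2 0.24). The list of other interferon regulatory factors had 8 measured genes, with IRF2BP1, IRF2BP2 and BATF2 counted in. In it IRF2 was lower (log2 -0.29) and IRF8 higher (log2 0.23), so that 25% were called against 31.4% of all genes.

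Among 54 other interferon-stimulated genes 21 (38.9%) were lower and 9 (16.7%) higher, against 15.5% and 15.9% of all genes, with a median log2 change of -0.11. TNFSF10, the death ligand TRAIL, fell from 275 and 318 in vector to 112 and 80.2 in FOXC1 arrays, or 2.81-fold (log2 -1.49 ± 0.13). GBP2, a GTPase induced by interferon gamma, fell from 438 and 391 to 132 and 146, or 2.77-fold (log2 -1.47 ± 0.10). UBA7, the enzyme that activates ISG15, and its conjugating partner UBE2L6 fell 2.03-fold and 1.59-fold, and APOL6 fell 1.79-fold. CXCL10, a chemokine that attracts T cells, was dim and higher, at 48.1 and 52.2 against 90.3 and 89.8 (log2 0.68 ± 0.13). Thus the activating and conjugating enzymes of ISG15 were lower while ISG15, HERC5 and HERC6 did not pass.

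**Figure D4:**
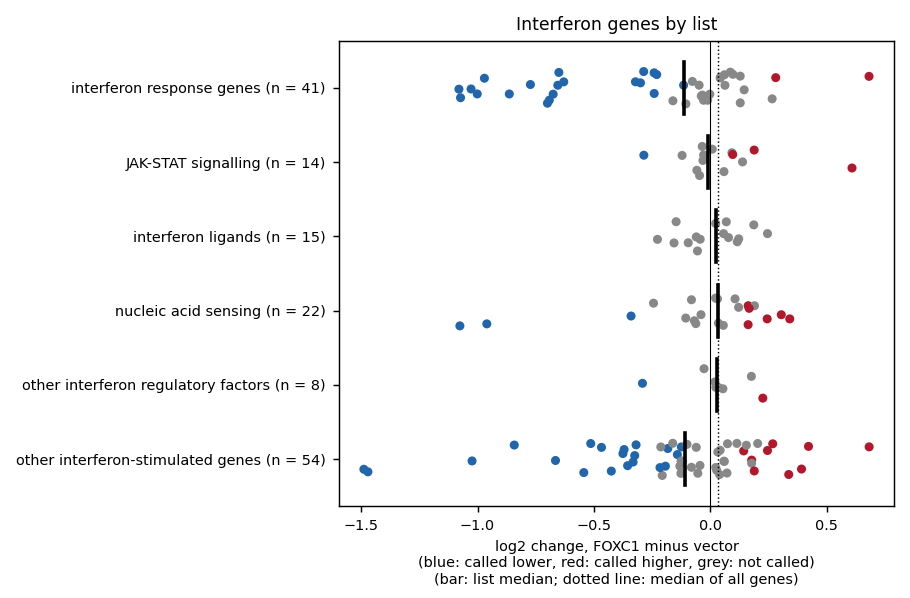
Log2 change, FOXC1 minus vector, of each gene in the interferon response set (n = 41) and in 5 lists of other pathway genes, coloured by call, with a bar at each list median and a dotted line at 0.03, the median of all genes. The interferon response genes (median -0.11) and the other interferon-stimulated genes (-0.11) have tails to the left, while no ligand gene is coloured.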

How the data were processed

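The authors reduced each array to 1 value per probe set with PLIER in Affymetrix Expression Console, per the labels and the submitters' processing notes. What they deposited is a linear intensity, the PLIER signal. The sources used here do not give software versions or normalization options. Values were used as deposited, and log2(signal + 16) of the deposited intensity was taken here, which shrinks the folds of dim genes. Folds are 2 to the power of the fitted log2 difference.

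Of 33297 probe sets 21214 carried a gene symbol in the platform annotation, 19460 of them 1 symbol and 1754 several. The fit over the named ones used limma 3.58.1 under R 4.3.3 (lmFit, eBayes with trend, two-sided, 2 residual and 18.1 prior degrees of freedom), with Benjamini-Hochberg adjustment at 0.05. Each gene kept its brightest probe set, by the mean over the 4 arrays. The fit was also run on simulated data with independent noise for each probe set, which does not bear on the calls given here. Arrays have no read depth, and their number limits precision.

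All 41 genes are accounted for, and per-array values are given for genes that passed and for the IFIT, OAS, MX, PARP and STAT-IRF families and a few others. Of each list of other pathway genes up to 6 that passed are named, largest change first, and further neighbours were named for their position. The genes and lists were chosen with earlier results of these data known. Alternatives were an offset of 1 or of 64, a signal filter at the 25th or the 50th percentile, normalization by quantiles or by median centring, no variance trend, robust moderation, a block for the replicate number, each array left out, averaged probe sets, all rows, and an adjusted p of 0.10. Centring over all rows was added after seeing the data. Arrays with the same replicate number did not deviate together (correlation -0.01 over probe sets), so the number is not used as a pairing.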

Additional observations from a re-analysis of the deposited data

How the results depend on the processing

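None of the 22 called genes changed sign in these fits, and 17 had the same call in every fit that tested them; the 5 exceptions, OAS2, OASL, IFI6, IFI16 and USP18, are given above. The count of lower genes was between 17 and 22 and that of higher genes between 2 and 4 when 1 array was left out (4 without FOXC1 replicate 2, with IFI35 and IFNAR1 added). The higher count was also 4 with median centring (IFI35, IFNAR1) and 4 with the replicate number as a block (IFI35, CMPK2), where the lower count remained 20. Without FOXC1 replicate 1 CMPK2 was also called higher and DDX60 and IFNGR1 lower, DDX60 was called lower with centring over all rows, IFNB1 higher without a variance trend, and IFI35 higher with either percentile filter, quantile normalization and an adjusted p of 0.10. The median log2 change of the genes was -0.159 to -0.092 with 1 array left out, -0.161 among the 37 above the 25th percentile of signal, -0.241 among the 23 above the 50th, and -0.156 with centring over all rows. The other pathway genes gave 19 to 27 lower and 14 to 20 higher with 1 array left out, 14 lower of 59 tested above the 50th percentile, and 12 higher both without a variance trend and with centring over all rows. Fewer genes are tested above a percentile: MX2 was left out at the 25th, and OAS1, OASL, MX1, MX2, PARP9, IFI44L and IFIH1 of the called genes at the 50th. For the other settings the cause was not tested. Without a variance trend 1790 of all genes were lower and 1461 higher, and in a fit over all rows 2157 and 1858. IFI27, RSAD2 and IFNB1 are limited by low signal.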
